A study of Mus musculus with 28 samples.

Results

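Lysozyme, the pore-forming protein of Mpeg1 and the superoxide-making NADPH oxidase are weapons that phagocytes direct at what they have engulfed. The 7 genes Lyz2, Mpeg1, Cybb, Cyba, Ncf1, Ncf4 and Rac2 were followed here in whole mouse brain during cuprizone demyelination and remyelination. They were taken as a list of symbols, each of which matched a single Ensembl identifier among the 55414 genes in the tables. The list was chosen by measured values of these libraries, with the higher Lyz2 and Cybb levels of demyelination and remyelination over naive brain already known. The differences from naive brain are therefore given as a description of these libraries, with no p-value, and support nothing by themselves.

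Cuprizone, a copper-binding toxin added to the diet, kills oligodendrocytes, and myelin grows back once it is withdrawn. The 28 libraries, 7 per group, came from naive TNFR1ff mice (CPZ0), TNFR1ff mice at the peak of demyelination (CPZ5), mgTNFR1KO mice in remyelination (CPZ6+1) and TNFR1ff mice in remyelination (CPZ6+1). All 4 groups carry the floxed TNFR1 gene, on a C57BL/6 background for the TNFR1ff mice. The mgTNFR1KO mice, called knockout below, also carry Cx3cr1-CreER, a tamoxifen-inducible Cre at a gene of microglia and some other myeloid cells, and lost TNFR1 from microglia after tamoxifen given as therapy. The labels used here state no unit for the CPZ codes, no age, and no tamoxifen treatment of the TNFR1ff groups. They speak of samples rather than of separate animals, so the p-values measure the spread between these samples.

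In the resting phagocyte the oxidase lies in parts. Cybb encodes its catalytic membrane subunit (gp91phox or NOX2), which moves electrons from NADPH to oxygen, and Cyba the membrane partner that stabilises it (p22phox). Ncf1 (p47phox) is the cytosolic organizer, Ncf4 (p40phox) a cytosolic subunit that binds a phagosomal lipid, and Rac2 the GTPase of blood cells that completes the active complex. Lyz2 encodes the lysozyme of macrophages and neutrophils, which cleaves bacterial cell walls, and Mpeg1 encodes perforin-2, a pore-forming protein of macrophages. In brain these genes are mainly expressed by microglia and other myeloid cells, and TNF is known as an agent that primes the oxidase of neutrophils.

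A promoter sequence in the RefSeq table (build GRCm38.p6) was found for 5 of the 7 genes: Lyz2, Mpeg1, Cybb, Cyba and Ncf1. Each covers 250 bases before and 50 after the transcript start used in that table. They were searched on both strands for GAGGAA, a core bound by the myeloid factor PU.1, and for a composite of a PU.1 and an interferon regulatory factor element (GGAA, then 2 bases of any kind, then GAAA). Cybb was the gene among these 5 with a match to either motif, and it held both. It is printed for that reason, and because PU.1 and IRF8 are known from human cells to act at the CYBB promoter. The capitals mark both matches, which overlap and read on the opposite strand, the composite starting 4 and GAGGAA 10 bases from the transcript start counted as base 1.
Cybb, chrX:9469275-9469574, minus strand, GRCm38.p6: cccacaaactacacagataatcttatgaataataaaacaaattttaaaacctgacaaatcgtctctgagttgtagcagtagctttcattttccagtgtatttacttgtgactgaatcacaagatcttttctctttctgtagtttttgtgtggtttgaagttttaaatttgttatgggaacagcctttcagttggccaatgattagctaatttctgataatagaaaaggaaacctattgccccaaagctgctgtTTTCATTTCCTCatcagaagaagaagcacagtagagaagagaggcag
Among 32851 promoters of this length, 28.3% held GAGGAA and 2.7% the composite. A match describes these letters and is not evidence of binding.

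QuantSeq reads a tag near the 3′ end of each transcript, and levels are in CPM, counts scaled to a common library size after TMM normalisation. Library totals ranged from 1522919 to 3137252 expected counts, so that 3 counts, taken as the floor, are worth between 0.956 and 1.97 CPM. The most abundant gene, ENSMUSG00000119584.1, took 25.54% of naive library 1 and 1.33% of knockout library 1, against 5.68 to 17.12% of the other 26. These libraries are left out together as an alternative. All 9 marker genes of neurons, astrocytes and oligodendrocytes, taken to check the tissue, had counts in every group. The targeted gene, Tnfrsf1a, averaged 22.1 ± 4.22 CPM in knockout and 23.2 ± 4.47 CPM in remyelination control libraries (SD, n = 7 each). Because the tag may fall outside the floxed exons, and because other brain cells express the gene, these levels are no check of the deletion.

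A single edgeR quasi-likelihood fit covered the 12423 genes that passed a filter on low counts. Of the 7 genes, 5 passed it and 2, Cyba and Ncf4, did not. Cybb, Ncf1 and Rac2 passed through the groups where they were high, since fits of only the 2 groups compared drop them beside naive libraries. Their differences from naive brain were therefore partly built in. Such fits also drop Cybb and Rac2 in knockout against control, and Rac2 in remyelination against demyelination. A gene was called below a Benjamini-Hochberg adjusted p of 0.05. The plot of every library shows the 7 genes on their own scales.

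**Figure D1:**
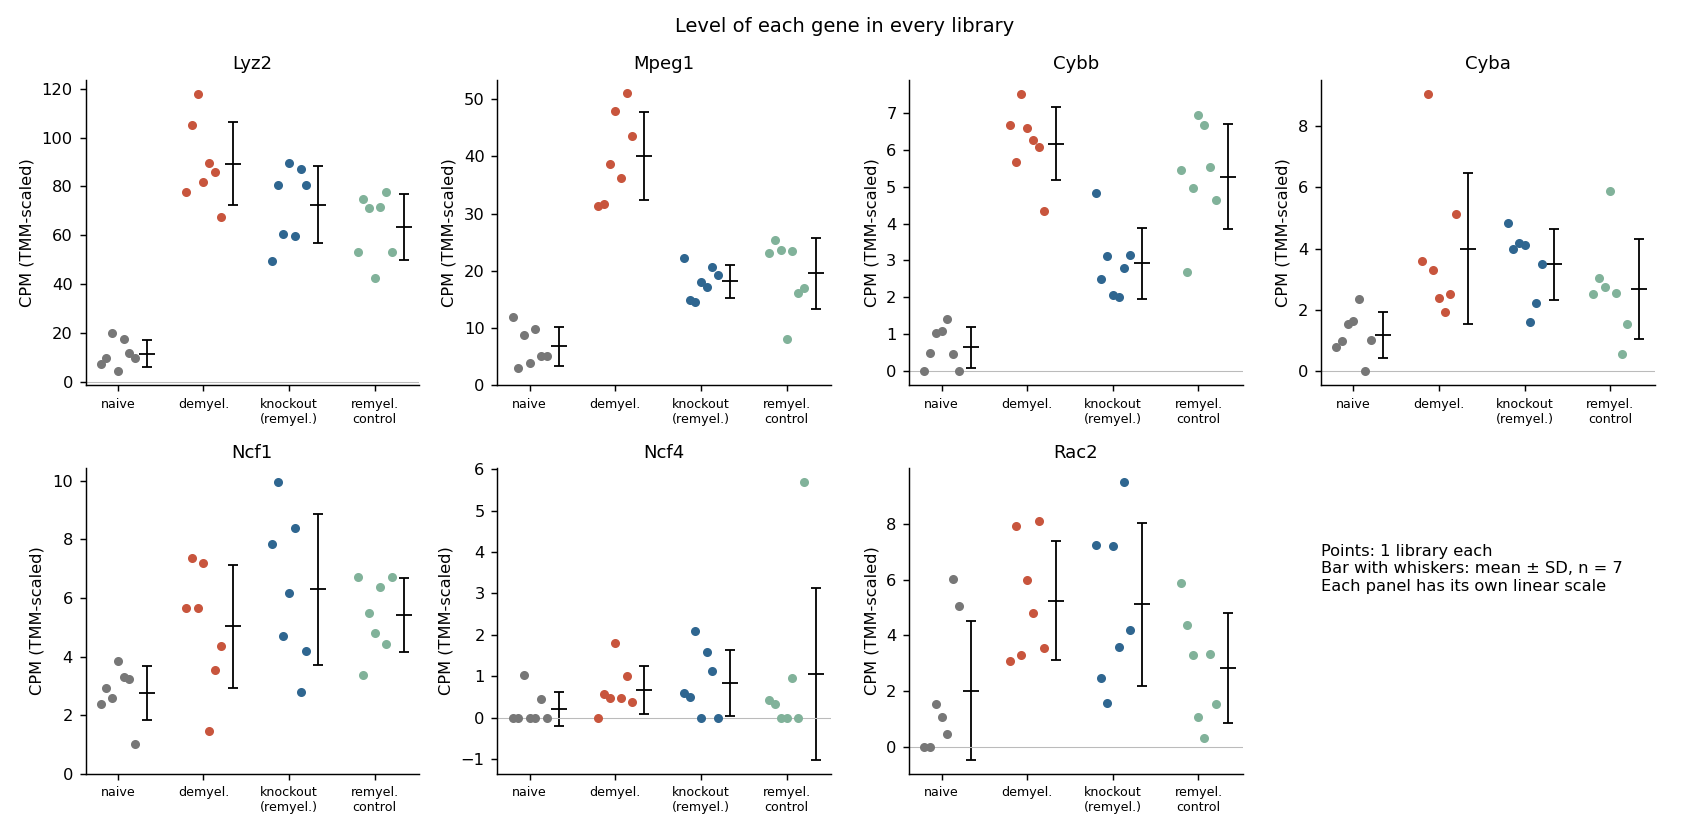
Level of each of the 7 genes in CPM, 1 point per library, with the mean and SD of 7 libraries beside each group, on a separate linear axis per gene. Demyelination libraries lie above all naive libraries for Lyz2, Mpeg1 and Cybb, while the groups overlap for Cyba, Ncf1, Ncf4 and Rac2.

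At the peak of demyelination Lyz2, Mpeg1 and Cybb stood well above naive brain. For these 3 genes every demyelination library was higher than every naive one, which held in that direction for 0.910% of all genes tested. They were also the 3 of 5 tested genes past the threshold upward, against 1.30% of all genes, and these shares are printed for scale only. In whole-brain RNA a larger number of cells and more RNA per cell cannot be told apart.

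Lyz2 (ENSMUSG00000069516.9) had 67.5 CPM in the lowest, 85.9 in the median and 118 in the highest demyelination library, against 4.40, 9.70 and 20.1 CPM in naive libraries. The mean was 89.4 ± 17.0 CPM in demyelination and 11.5 ± 5.55 CPM in naive libraries (SD, n = 7 each, as for all group means below), a log2 fold change of +2.92 (SE 0.202). No naive library came near the demyelination range. Lyz1, its neighbouring paralogue known from mouse Paneth cells of the gut, totalled 9 counts over demyelination and 6 over naive libraries. The Lyz2 counts were within 0.005 of a whole number in all 28 libraries, so they show no sign of reads shared in fractions with another gene.

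Mpeg1 (ENSMUSG00000046805.11) had 31.3, 38.6 and 51.0 CPM in the lowest, median and highest demyelination library and 2.91, 5.09 and 11.9 CPM in the naive ones. The log2 fold change was +2.59 (SE 0.233). The highest naive value was that of library 1, 1 of the 2 libraries set apart by their most abundant gene, and without both of these the log2 fold change was +2.74.

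Cybb (ENSMUSG00000015340.11), the catalytic subunit, had 4.35, 6.27 and 7.52 CPM in the lowest, median and highest demyelination library. In naive libraries it had between 0 and 3 counts each, 9 in all, against 86 in demyelination. The log2 fold change was +3.09 (SE 0.421), and its precision is limited by the naive counts. All naive values were at or under the floor, all demyelination values over it.

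The other subunits were higher on average by less, and their groups overlapped. Cyba, the membrane partner, had 56 counts over the 7 demyelination libraries and 16 over the naive ones, which is 3.41 times as many at equal depth (95% counting interval 1.93 to 6.37). Its highest demyelination library held 9.06 CPM and the lowest 1.93, against a naive maximum of 2.35. Ncf1, the organizer, averaged 5.02 ± 2.10 CPM in demyelination and 2.75 ± 0.909 CPM in naive libraries (log2 fold change +0.83, SE 0.359). Rac2 averaged 5.25 ± 2.14 CPM in demyelination and 2.03 ± 2.48 CPM in naive libraries (+1.27, SE 0.540). Ncf1 and Rac2 did not pass the threshold. Ncf4 totalled 9 counts over demyelination and 3 over naive libraries, or 2.92 times as many (counting interval 0.729 to 16.8), and no difference was detectable at this depth. Intervals and floors cover counting error only. Cyba and Ncf1 overlap another annotated gene on the opposite strand, Gm20388 and Gtf2ird2, and the strand setting of the counting is not given in the sources used here, so their values are uncertain.

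In remyelination the 3 genes were still above naive brain in both genotypes. In knockout libraries they were again the 3 of 5 tested genes past the threshold upward, as were 1.54% of all genes, and in remyelination controls again 3, beside 0.451% of all genes. Lyz2 was higher than in naive brain by 2.63 on the log2 scale in knockout (SE 0.203) and by 2.43 in control libraries (SE 0.203), Mpeg1 by 1.45 (SE 0.245) and 1.58 (SE 0.242), and Cybb by 2.01 (SE 0.457) and 2.86 (SE 0.425). These differences share the 7 naive libraries. All knockout libraries lay above all naive ones for the 3 genes (0.563% of all genes did so), and all control libraries for Lyz2 and Cybb (0.435%). The exception was Mpeg1 in control library 4, at 8.0 CPM.

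Ncf1 was at 6.29 ± 2.57 CPM in knockout and 5.42 ± 1.28 CPM in control libraries, against 2.75 ± 0.909 CPM in naive ones. The log2 fold changes over naive were +1.17 (SE 0.350) and +0.95 (SE 0.353), with neither past the threshold. The difference of the knockout group from naive passed it with DESeq2 (+1.19), without knockout library 6 (+1.29) and without demyelination library 5 (+1.17). Rac2 was higher than in naive brain by 1.22 in knockout (95% interval 0.13 to 2.31) and by 0.41 in control libraries (−0.74 to 1.55), also without a call.

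**Figure D2:**
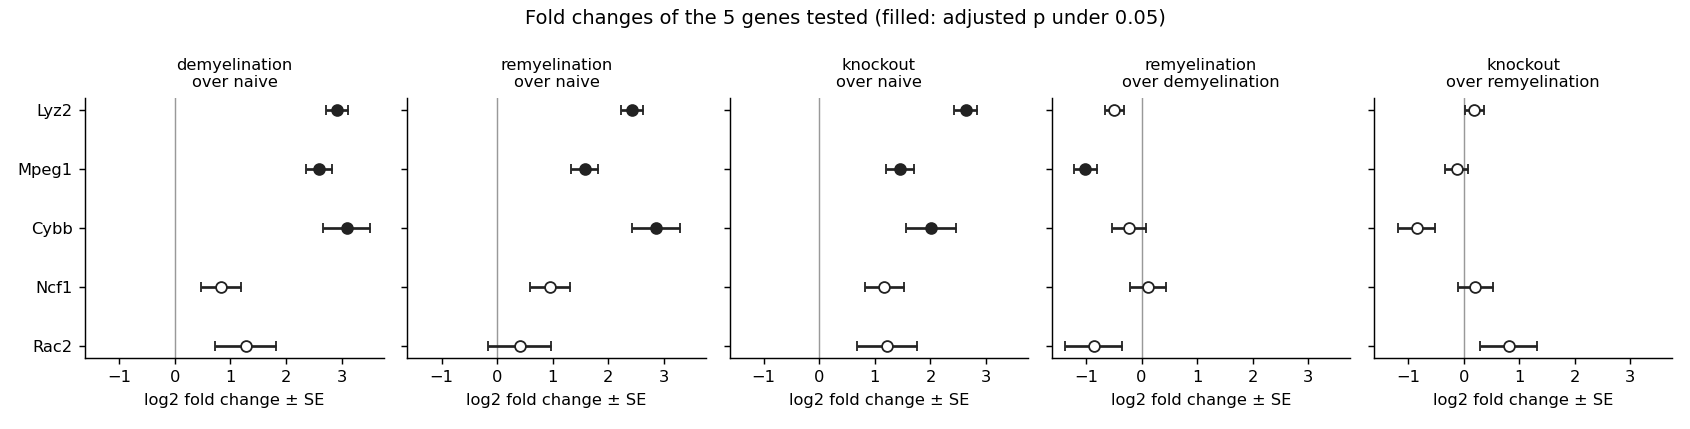
Log2 fold change with its SE for the 5 tested genes in 5 comparisons, filled where the adjusted p was under 0.05. Lyz2, Mpeg1 and Cybb lie between +1.45 and +3.09 against naive brain, and Mpeg1 alone is filled between remyelination and demyelination, at −1.01.

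Mpeg1 was the 1 gene of the 5 tested that fell in remyelination controls against the peak of demyelination, where 0.185% of all genes did. It had 8.0, 23.1 and 25.4 CPM in the lowest, median and highest remyelination control library, against 31.3, 38.6 and 51.0 CPM in demyelination. All control libraries lay below all demyelination ones, as for 0.169% of all genes. This is −1.01 on the log2 scale (SE 0.2, adjusted p = 0.00497, edgeR quasi-likelihood test). Leaving out any 1 library kept the adjusted p between 0.0029 and 0.0231. The demyelination libraries were among those known when the genes were listed, so a fall from a high value is favoured by that choice.

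The other 4 tested genes did not pass in this comparison. Lyz2 was at 63.4 ± 13.5 CPM in remyelination controls and 89.4 ± 17.0 CPM in demyelination, a log2 fold change of −0.49 (95% interval −0.83 to −0.15, adjusted p = 0.404, edgeR), and the groups overlapped. Cybb was at 5.27 ± 1.41 CPM in remyelination controls and 6.16 ± 0.989 CPM in demyelination (−0.22, interval −0.85 to 0.40, adjusted p = 0.952). Ncf1 had a log2 fold change of +0.12 (−0.54 to 0.78, adjusted p = 0.983; −0.05 without demyelination library 5) and Rac2 of −0.86 (−1.89 to 0.17, adjusted p = 0.837). The Rac2 interval holds both a halving and no change. Cyba had 43 counts in remyelination controls and 56 in demyelination, or 0.667 times as many at equal depth (counting interval 0.438 to 1.01).

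Lyz2 and Mpeg1, the genes with the most counts, are set side by side in a plot of all libraries. The ratio of Lyz2 to Mpeg1 CPM averaged 1.91 ± 0.886 in naive, 2.33 ± 0.700 in demyelination, 4.09 ± 1.03 in knockout and 3.51 ± 1.11 in remyelination control libraries (SD, n = 7 each). The ranges overlapped between all 4 groups, from 2.22 to 5.40 in knockout and 2.31 to 5.33 in control libraries, against 1.55 to 3.32 in demyelination. This ratio was looked at after the values were seen and was not tested.

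**Figure D3:**
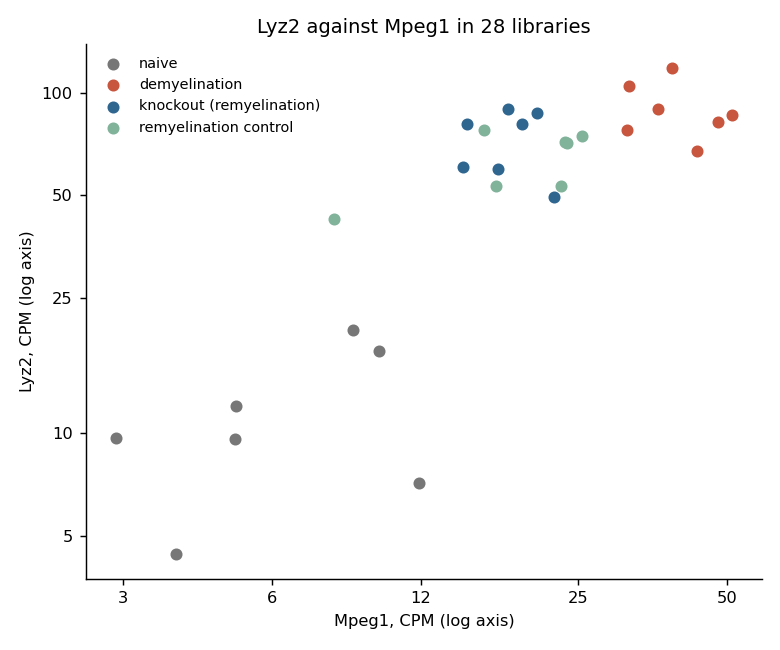
Lyz2 against Mpeg1 in CPM on log axes, 1 point per library, coloured by group. Knockout and remyelination control libraries lie left of the demyelination libraries, at 8.0 to 25.4 CPM of Mpeg1, while their Lyz2 values reach 89.7 and 77.6 CPM.

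The comparison of knockout with control mice asks what loss of microglial TNFR1 changed in remyelination. None of the 5 tested genes was called (1 had an unadjusted p under 0.05, DESeq2 called 0), and 0.0483% of all genes were. Lyz2 had 49.5, 80.7 and 89.7 CPM in the lowest, median and highest knockout library, against 42.7, 71.0 and 77.6 CPM in control libraries. The log2 fold change was +0.19 (95% interval −0.15 to 0.53, adjusted p = 0.825, edgeR). For Mpeg1 it was −0.13 (−0.55 to 0.30, adjusted p = 0.921), with means of 18.1 ± 2.85 CPM in knockout and 19.5 ± 6.20 CPM in control libraries. The intervals of these 2 genes leave out a doubling or a halving in either direction.

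Cybb was the gene with the unadjusted p under 0.05. It had 2.0, 2.79 and 4.83 CPM in the lowest, median and highest knockout library, against 2.70, 5.46 and 6.93 CPM in control libraries. Knockout library 1 held the highest knockout value, the other 6 lay between 2.0 and 3.14 CPM, and control library 2 was the 1 control within that range. This gives −0.85 on the log2 scale (SE 0.334, 95% interval −1.53 to −0.18, unadjusted p = 0.0149, adjusted p = 0.570, edgeR), and it rests on 42 counts in knockout and 83 in control libraries. With 1 library left out at a time the difference stayed between −0.99 and −0.77, with an adjusted p from 0.408 to 0.833. A fit of only these 2 groups drops Cybb, so its test here relied on the other groups to pass the filter.

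The remaining subunits showed no call and wide intervals. Ncf1 had a log2 fold change of +0.21 (−0.43 to 0.86, adjusted p = 0.909, edgeR) and Rac2 of +0.81 (−0.22 to 1.84, adjusted p = 0.741), Rac2 ranging from 1.57 to 9.48 CPM in knockout and 0.318 to 5.88 CPM in control libraries. Cyba was at 3.49 ± 1.16 CPM in knockout and 2.69 ± 1.64 CPM in control libraries (exact permutation test of the means, two-sided, p = 0.316, n = 7 each). Ncf4 was at 0.843 ± 0.795 CPM in knockout and 1.06 ± 2.07 CPM in control libraries (exact permutation p = 0.935). Control library 7 held 11 of the 16 Ncf4 counts of its group, and without it the control mean was 0.285 ± 0.377 CPM over 6 libraries (exact permutation p = 0.142).

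Summed over the 5 oxidase genes, knockout libraries held 18.7 ± 3.44 CPM and remyelination controls 17.3 ± 2.83 CPM, demyelination libraries 21.1 ± 5.04 CPM and naive ones 6.82 ± 2.33 CPM (SD, n = 7 each). Over all 28 libraries the correlation of log2(CPM + 1) between pairs of the 7 genes ran from 0.01 (Cyba with Ncf4) to 0.84 (Lyz2 with Mpeg1), with a median of 0.49 over 21 pairs. After the group means were taken off, it ran from −0.26 to 0.35. The libraries share their group and their scaling, most of these counts are sparse, and the correlations are given as a description.

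The tested genes most like Lyz2 over the 28 libraries were Gfap, the astrocyte filament, the cystatin gene Cst7, Itgax, which encodes CD11c, the leukocyte surface gene Cd52 and the complement gene C4b, with Pearson correlations of 0.88 to 0.89. Most like the oxidase sum were the protease gene Ctsh, Apoe, Cd68, Ctss and the pan-leukocyte gene Ptprc, at 0.84 to 0.85. Within groups the same correlations ran from −0.06 for Itgax to 0.48 for Ptprc.

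Other genes of the oxidase family were mostly too low to test. Rac1, the GTPase that most cells express, was at 226 ± 20.5 CPM in demyelination and 209 ± 18.7 CPM in naive libraries (+0.11). Cybc1 differed by −0.11, and neither gene passed the threshold. Nox4 had between 4 and 10 counts per group and Nox3 none.

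Among 16 genes of oxidase activation, charge compensation and related GTPases, 12 were tested and 2 rose in demyelination, against 1.30% of all genes. The list median was +0.03, beside −0.01 over all genes tested. The 2 genes that rose encode chains of the integrin CR3, a receptor for complement-coated targets. Itgb2 had a log2 fold change of +1.71 (SE 0.247) and Itgam of +1.01 (SE 0.281). This and the other lists were chosen with earlier results known, so their differences from naive brain are given as a description. In knockout libraries Itgb2 was the 1 gene of the 12 called higher against naive, at +0.92, as were 1.54% of all genes. Its difference from naive in control libraries was +0.84 and did not pass the threshold. The most abundant members, Prkcb, Pak1 and Cdc42, differed from naive by −0.02, −0.11 and +0.02 in demyelination. Hvcn1, the proton channel that balances the charge moved by the oxidase, was below the filter, at 45 counts over the demyelination and 14 over the naive libraries.

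Of 13 other antimicrobial and phagocyte genes, 4 were tested and all 4 rose in demyelination, against 1.30% of all genes. They were Lgals3 (+3.83, SE 0.401), Cst7, Cd68 (+2.67, SE 0.288) and the lysosomal protease Ctss (+1.68, SE 0.126). Cst7 had 186 counts over the demyelination libraries and 1 over the naive ones, and its fold change is not given. Over the naive libraries Lgals3 had 22 counts and Cd68 had 34. Lgals3, Cd68 and Cst7 passed the filter through the groups where they were high, so their rise was partly built in. In remyelination controls 2 of these 4 genes, Ctss and Cst7, were called lower than in demyelination, as were 0.185% of all genes. Ctss differed by −0.52 (adjusted p = 0.0246, edgeR) and Cst7 by −1.43. This list was chosen with earlier results known, and Cst7 passed the filter through the groups where it was high. A fall from a high demyelination value is favoured by this and is given as a description. Mpo, the peroxidase of neutrophil granules, had between 1 and 3 counts per group, and Nos2, which makes nitric oxide, between 3 and 11. Lcn2, an iron-binding defence protein, had 54 counts in demyelination, 52 in knockout, 52 in control and 6 in naive libraries. Of 8 myeloid transcription factors, 3 were tested. Irf8 rose to 28.7 ± 5.93 CPM in demyelination, against 7.08 ± 1.84 CPM in naive libraries (+2.0, SE 0.226). Spi1, which encodes PU.1, was below the filter with 16 counts in demyelination and 5 in naive libraries. Between knockout and control libraries Itgb2 differed by +0.08, Ctss by +0.04 and Irf8 by −0.10, with adjusted p from 0.940 to 0.953.

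The 7 genes are not particular to 1 phagocyte, so markers of several were summed. Homeostatic microglia markers, 12 genes of which all had counts, summed to 340 to 428 CPM in demyelination and 204 to 262 CPM in naive libraries. In remyelination the sums were 251 to 348 CPM in knockout and 310 to 369 CPM in control libraries. Of 10 markers tested, 4 rose in demyelination, against 1.30% of all genes, among them Fcrls (+1.75), Csf1r (+0.84) and Cx3cr1 (+0.67). P2ry12 was at −0.49 and Tmem119 at −0.18, and neither passed the threshold. In knockout against control libraries Cx3cr1 fell by 0.89 (adjusted p = 0.0365, 26.1 ± 11.8 CPM in knockout and 48.9 ± 7.80 CPM in control libraries), and it is the gene that carries the Cre. Without it the microglia sum was 267 ± 25.3 in knockout and 285 ± 11.7 CPM in control libraries. The Cybb difference between these groups was not called. Any part of the Cx3cr1 allele or of tamoxifen in it cannot be told apart from that of TNFR1.

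**Figure D4:**
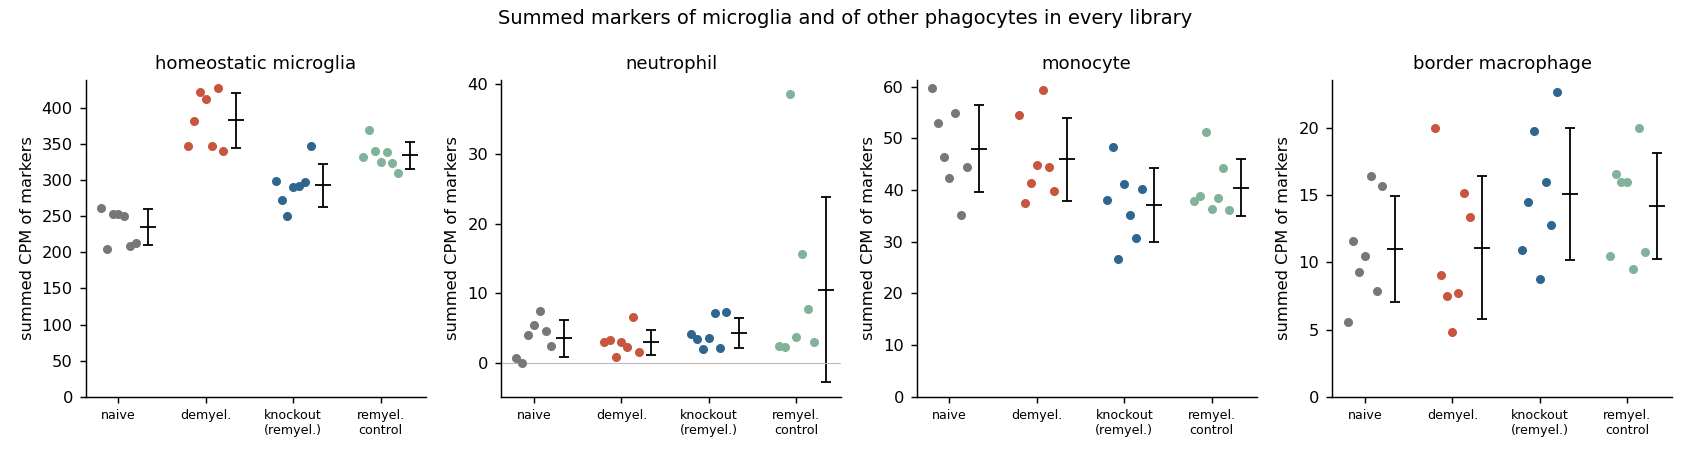
Summed CPM of marker genes of microglia, neutrophils, monocytes and border macrophages, 1 point per library, with mean and SD of 7 libraries per group. Microglia sums of demyelination libraries (340 to 428 CPM) lie above those of naive libraries (204 to 262 CPM), and 2 remyelination control libraries stand out for neutrophil genes at 38.5 and 15.6 CPM.

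For markers of other phagocytes the ranges of demyelination and naive libraries overlapped. The 11 neutrophil markers summed to 0.940 to 6.57 CPM in demyelination and 0 to 7.52 CPM in naive libraries, with Cxcr2 and Elane at 0 in all 4 groups. They were at 2.09 to 7.34 CPM in knockout and 2.37 to 38.5 CPM in control remyelination libraries, where library 3 held 38.5 and library 5 held 15.6 CPM. Without these 2 libraries the counts of called genes among the 5 were as before, 3, 3 and 3 against naive, 1 and 0. Control library 7, which held most Ncf4 counts, was not among them, and library 3 held no Ncf4 count. The 8 monocyte markers summed to 37.4 to 59.3 CPM in demyelination and 35.1 to 59.7 CPM in naive libraries, largely from Fn1, Vcan and Itga4, which other brain cells also express. Ccr2 and Chil3 were at 0 in naive and Chil3 in demyelination libraries, and Ccr2 had 4 counts in demyelination. The 9 border macrophage markers summed to 4.79 to 20.0 CPM in demyelination and 5.57 to 16.4 CPM in naive libraries, and the 9 lymphocyte markers to 5.14 to 9.87 CPM in demyelination and 1.85 to 11.6 CPM in naive libraries. In remyelination the monocyte sums were 26.6 to 48.3 CPM in knockout and 36.2 to 51.2 CPM in control libraries. Border macrophage sums were 8.76 to 22.7 CPM in knockout and 9.54 to 20.0 CPM in control libraries. These ranges overlapped those of naive libraries. The part of all these cells in the values of the 7 genes was not tested.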

How the data were processed

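Whole-brain RNA of 28 mouse samples was sequenced with a 3′ tag method (QuantSeq FWD, per the labels' protocols). The authors deposited RSEM expected counts per gene, with STAR, cutadapt, FastQC and edgeR and the build GRCm39 named in the submitters' processing notes. Tool versions, the annotation and the strand setting were not found in the sources used here. Expected counts were rounded to whole numbers. Symbols came from GENCODE M21 by Ensembl identifier for 52081 of 55414 genes, and 10.76% of counts had none. Groups follow the labels. Genes were filtered (filterByExpr), scaled (TMM) and tested with edgeR 4.0.16 quasi-likelihood tests in R 4.3.3, 1 fit of 4 groups, with Benjamini-Hochberg adjustment over 12423 genes. SE is the log2 fold change divided by the square root of F. The script was tested on simulated data. Cyba and Ncf4, below the filter, were compared by conditional binomial intervals and exact permutation. Alternatives were other size factors, no filter, DESeq2 1.42.0, a replicate block, fits of 2 groups and libraries left out. The 7 genes and all lists were chosen with earlier results of these data known. Named from each list were called genes and the 3 most abundant, and the most similar genes by correlation of log2(CPM + 1). Other genes were named after their values were seen. A few genes of the lists are not reported here.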

Additional observations from a re-analysis of the deposited data

Results flagged for a closer look

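In 2 of 28 gene and group combinations 1 library stood apart from its group by Dixon's test, which flags about 1 in 20 groups by chance. Cybb reached 4.83 CPM in knockout library 1, where the other 6 knockout libraries lay between 2.0 and 3.14 CPM. That library also had the lowest share of its most abundant gene, 1.33%. Without it the difference of knockout from control libraries was −0.99 on the log2 scale. Ncf4 reached 5.68 CPM in remyelination control library 7, from 11 counts, where the other 6 control libraries held 5 counts together.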

How the results depend on the processing

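Among the 5 tested genes, 3, 3, 3, 1 and 0 were called in demyelination, remyelination control and knockout against naive, remyelination against demyelination and knockout against control, in every alternative with the following exceptions. Ncf1 also passed between knockout and naive with DESeq2 and without demyelination library 5 or knockout library 6. In fits of only the 2 groups compared, the filter dropped Cybb, Ncf1 and Rac2 beside naive, and 2 genes were called in each comparison with naive. It also dropped Rac2 in both other comparisons and Cybb between knockout and control, so these were not rechecked by such fits. Of the fold changes of the 5 genes, 1 reversed, that of Ncf1 between remyelination controls and demyelination, which was not called and ran from −0.05 (without demyelination library 5) to 0.23 (without demyelination library 2) with 1 library left out.

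Counts over all genes moved more. For knockout against naive, 403 genes were called, and 243 with library totals, 608 with the replicate block, 644 without naive library 1 and knockout library 1 together, and 146 (without knockout library 7) to 736 (without knockout library 1) with 1 library left out. For remyelination control against naive, 78 were called, and 122 with no filter, 130 with DESeq2, 147 with the replicate block and 57 (without naive library 1) to 154 (without control library 1) with 1 left out. Remyelination against demyelination gave 48 and 73 with DESeq2, and knockout against control 6, 28 with no filter and 11 with DESeq2. The cause was not tested.

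The labels name no pairing by replicate number. After group means were taken off, same-numbered libraries of different groups correlated with a median of 0.035 (5 of 42 pairs over 0.1). Other-numbered ones had a median of −0.005 (19 of 252 pairs over 0.1). The library most alike had the same number in every other group for 1 of 28 libraries. These values do not settle whether a weak pairing exists. The block changed no call among the 5 genes. Leaving out control libraries 3 and 5 was chosen after seeing the data. Depth limits Cyba, Ncf4 and the naive values of Cybb and Rac2, which rest on few counts.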
